A study of Homo sapiens with 6 samples.

Results

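Ectopeptidases are enzymes that cut peptides outside the cell or inside vesicles that open to the outside. The genes described here are ECE1, ANPEP, LNPEP, CPD and DPP4, which encode membrane peptidases, and NPEPPS, which encodes a cytosolic relative of ANPEP and LNPEP. They were taken by gene symbol, and the 6 genes are 6 of the 17318 genes listed in each library. The set was selected on the FPKM difference between siOXTR and siControl: ECE1 and ANPEP were among the largest falls of that contrast, the only one of the series, and the others were added as their relatives with it known. The members' differences are therefore given as a description, with no test.

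RNA was sequenced from SNU216, an established human gastric cancer cell line, after transfection for 48 h. The 3 siOXTR libraries came from cells given an siRNA against OXTR, the receptor gene of the peptide hormone oxytocin, and the 3 siControl libraries from cells given a control siRNA. All 6 libraries are thus from transfected cells of 1 line, and the sources used here do not give the siRNA sequences. Nothing in the labels ties a library to its own culture, and the p-values below therefore rest on a spread between libraries that may be technical. Levels are FPKM, a fragment tally divided by transcript length and by the size of the library, so levels of different genes can be compared per length. In bulk RNA, fewer cells of a type and less RNA per cell cannot be told apart.

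The membrane members among these enzymes end or change peptide signals. ECE1 (endothelin-converting enzyme) cuts the inactive big endothelin to the vasoactive peptide endothelin, and also degrades kinins and other peptides in endosomes. ANPEP (aminopeptidase N, CD13) removes single residues from the start of peptides at the brush border of the gut and on myeloid cells. LNPEP is the insulin-regulated aminopeptidase, called oxytocinase because it degrades oxytocin and vasopressin. CPD (carboxypeptidase D) trims basic residues from the end of peptides after proprotein convertases have cut them, mostly in the trans-Golgi network. DPP4 (CD26) clips incretins and chemokines on the cell surface. NPEPPS, the puromycin-sensitive aminopeptidase, trims peptides in the cytosol.

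The coding sequences show what the members share and where they differ. ECE1, ANPEP, LNPEP and NPEPPS are zinc metallopeptidases with the HEXXH zinc-binding motif. The codons of that motif are shown in capitals, with flanking codons in lower case, 5′ to 3′ on the coding strand, from the main coding transcript of GENCODE release 29 (GRCh38).
ECE1: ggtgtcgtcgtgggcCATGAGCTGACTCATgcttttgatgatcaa
ANPEP: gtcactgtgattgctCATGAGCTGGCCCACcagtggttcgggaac
LNPEP: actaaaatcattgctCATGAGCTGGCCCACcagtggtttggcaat
NPEPPS: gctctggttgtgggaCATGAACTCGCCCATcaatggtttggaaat
In ANPEP and LNPEP 0 of the 15 motif bases differed. NPEPPS differed from each of them at 3 bases and ECE1 from each of them at 3. Over all 45 bases shown, ANPEP and LNPEP differed at 10, LNPEP and NPEPPS at 15 and ECE1 and ANPEP at 25. No HEXXH motif was found in CPD, a zinc carboxypeptidase with another metal-binding motif, or in DPP4, a serine peptidase.

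The membrane segment is where NPEPPS differs from the rest. The most hydrophobic stretch of 19 residues was located in each predicted protein by its mean Kyte-Doolittle hydropathy, with 1.7 taken as the threshold of a membrane segment. Its 57 coding bases are in capitals below.
ECE1: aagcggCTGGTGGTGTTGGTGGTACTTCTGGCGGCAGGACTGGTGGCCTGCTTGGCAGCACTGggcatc
ANPEP: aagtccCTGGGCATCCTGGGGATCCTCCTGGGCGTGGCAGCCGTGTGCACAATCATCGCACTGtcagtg
LNPEP: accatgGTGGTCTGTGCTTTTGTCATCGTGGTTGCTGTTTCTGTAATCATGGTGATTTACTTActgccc
CPD: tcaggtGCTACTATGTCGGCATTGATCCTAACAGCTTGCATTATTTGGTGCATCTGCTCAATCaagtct
NPEPPS: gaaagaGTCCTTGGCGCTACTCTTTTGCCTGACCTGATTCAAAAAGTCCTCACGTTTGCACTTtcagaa
The stretch had a mean hydropathy of 3.09 in ECE1 (residues 69 to 87 of 770), 2.71 in ANPEP (residues 11 to 29 of 967), 3.14 in LNPEP (residues 112 to 130 of 1025) and 2.44 in DPP4 (residues 10 to 28 of 766). These lie near the start of the protein, as in membrane proteins whose catalytic end faces outward. In CPD it lay near the end (2.16, residues 1307 to 1325 of 1380), and a further stretch at the start reached 1.84. NPEPPS had no stretch past the threshold, and its highest value was 1.46 (residues 782 to 800 of 919).

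**Figure D1:**
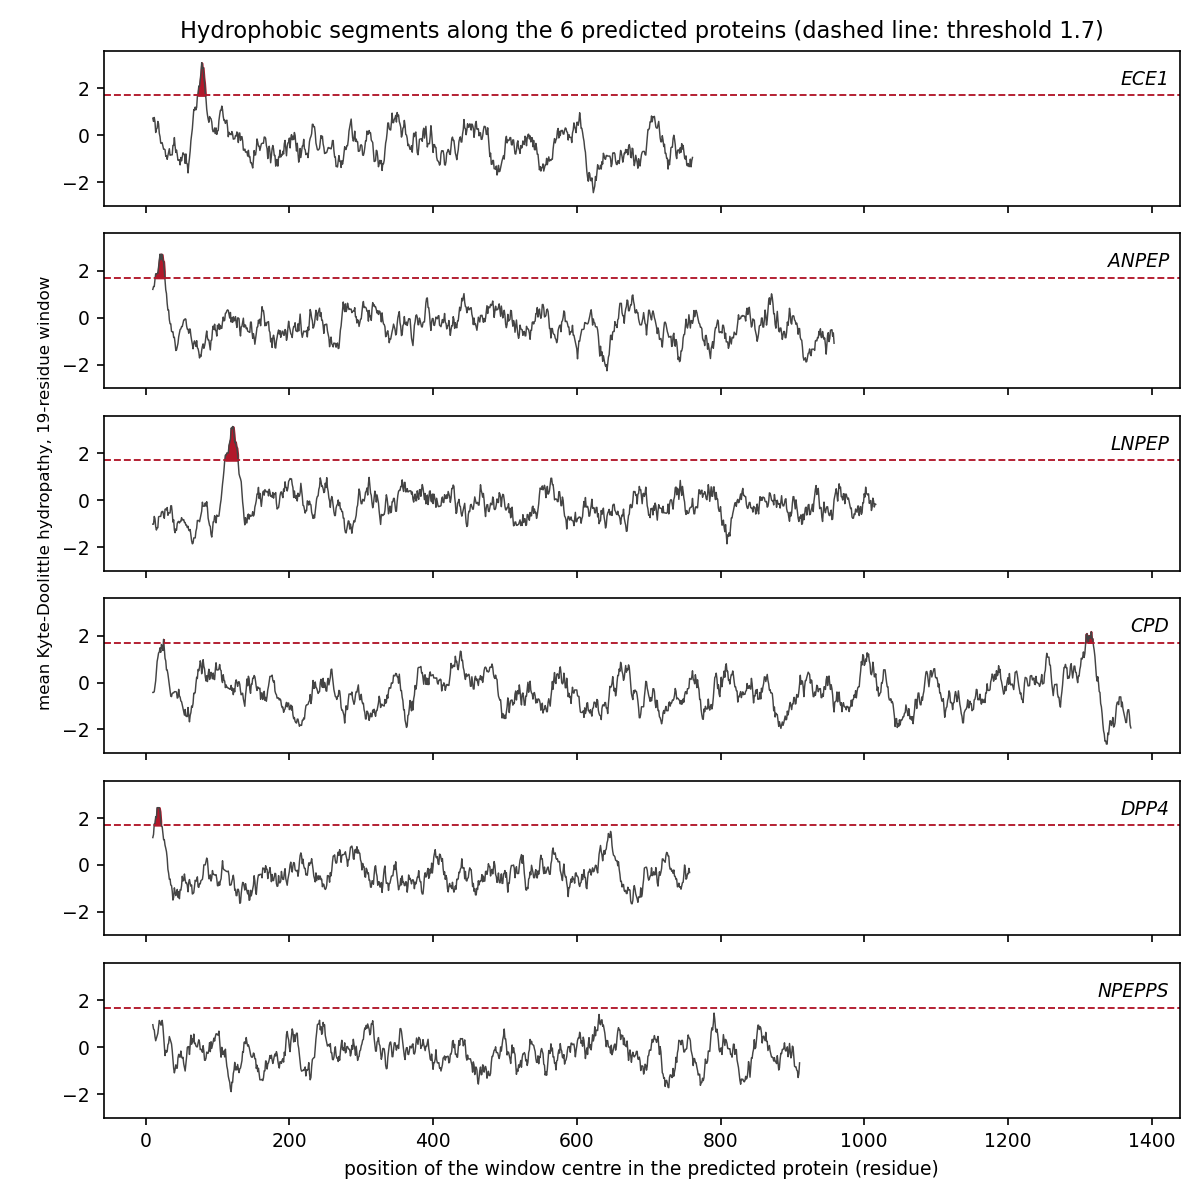
Mean Kyte-Doolittle hydropathy of 19-residue windows (vertical axis) along the predicted protein of each member (horizontal axis, window centre in residues), with the threshold of 1.7 dashed and windows above it filled. ECE1, ANPEP, LNPEP and DPP4 pass it once near the start, CPD at the start and near the end, and NPEPPS nowhere.

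OXTR, the gene the siRNA was aimed at, was at 4.76, 4.65 and 5.34 FPKM in siOXTR and at 39.37, 38.87 and 39.02 FPKM in siControl, so every library followed its label. Of 5 epithelial markers, the keratin genes KRT8, KRT18 and KRT19 were at 1494.86 FPKM or more in all 6 libraries, and KRT19 rose as deposited and did not pass after TMM scaling, by a trimmed mean of ratios between libraries. The other two fell (limma, adjusted p under 0.05): CDH1 (E-cadherin), at 19.8 to 20.27 FPKM in siOXTR and 73.32 to 79.7 FPKM in siControl, and EPCAM, at 136.34 to 149.83 FPKM in siOXTR and 280.41 to 310.91 FPKM in siControl. Of 7 fibroblast markers 6 had a row, and together these summed to 0.7 to 0.85 FPKM in siOXTR and 1.66 to 2.08 FPKM in siControl. The 7 blood and endothelial markers summed to 8.79 to 9.58 FPKM in siOXTR and 9.77 to 11.2 FPKM in siControl, most of it from CD68, a lysosomal protein gene. Their part in the results was not tested.

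ECE1, on chromosome 1 from 21217247 to 21345572 (GRCh38, minus strand), had 9.8, 9.58 and 10.0 FPKM in siOXTR and 51.24, 51.0 and 46.99 FPKM in siControl. All 3 siOXTR libraries lay far below all 3 siControl libraries, with no overlap. The means were 9.79 ± 0.21 FPKM in siOXTR and 49.7 ± 2.39 FPKM in siControl (SD, n = 3 each), a 5.08-fold lower level. The log2 fold change, on the log2(FPKM + 1) scale used throughout, was -2.23, the 5th lowest of the 11550 tested genes, those whose mean over the libraries reached 1 FPKM. ECE1 has several transcript starts that give proteins with different cytoplasmic ends, and the deposited values hold 1 level per gene, so the forms were not told apart.

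ANPEP, on chromosome 15 from 89784889 to 89815401 (minus strand), had 23.1, 23.21 and 23.04 FPKM in siOXTR and 89.31, 91.64 and 82.42 FPKM in siControl. The siOXTR libraries were nearly equal to each other and the groups did not overlap. The means were 23.1 ± 0.0862 FPKM in siOXTR and 87.8 ± 4.79 FPKM in siControl, a 3.8-fold lower level and a log2 fold change of -1.88, the 12th lowest of the tested genes.

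CPD, on chromosome 17 from 30378905 to 30469989 (plus strand), had 3.51, 3.14 and 3.39 FPKM in siOXTR and 10.06, 9.71 and 9.58 FPKM in siControl. Its mean was 2.92-fold lower in siOXTR, at 3.35 ± 0.189 FPKM, against 9.78 ± 0.248 FPKM in siControl, and the groups did not overlap. The log2 fold change was -1.31, which placed CPD 102nd from the lowest.

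LNPEP, on chromosome 5 from 96935394 to 97037515 (plus strand), differed least among the detected membrane members. It had 6.04, 6.14 and 6.07 FPKM in siOXTR and 10.19, 8.64 and 9.31 FPKM in siControl. The siControl libraries were the more scattered, and the lowest of them still lay above every siOXTR library. The means were 6.08 ± 0.0513 FPKM in siOXTR and 9.38 ± 0.777 FPKM in siControl, a 1.54-fold lower level with a log2 fold change of -0.55, 877th from the lowest.

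DPP4, on chromosome 2 from 161992241 to 162074542 (minus strand), was listed at 0 in all 3 siOXTR libraries and at 0.02, 0 and 0 FPKM in siControl. The gene did not reach the filter on low values, and no fold is given. FAP, the closest surface relative of DPP4, stayed at or under 0.19 FPKM in every library.

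NPEPPS, on chromosome 17 from 47522942 to 47623276 (plus strand), had 96.33, 95.11 and 98.22 FPKM in siOXTR and 85.96, 80.71 and 89.51 FPKM in siControl. Unlike the 4 detected membrane members, its siOXTR libraries all lay above its siControl libraries. The means were 96.6 ± 1.57 FPKM in siOXTR and 85.4 ± 4.43 FPKM in siControl, 1.13-fold higher, with a log2 fold change of 0.18. That value is close to the median of all tested genes, 0.13. After TMM scaling, which moved the median of all tested genes to 0.01, NPEPPS stood at 0.05. A near copy, NPEPPSP1, is annotated, and RefSeq lists a pseudogene named CPDP1 for CPD. How the authors' counting shared reads between these genes and their copies is not stated in these sources. ECE1, LNPEP, DPP4 and NPEPPS also overlap exons of an antisense gene, whose reads cannot be told apart if the libraries were not counted by strand.

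**Figure D2:**
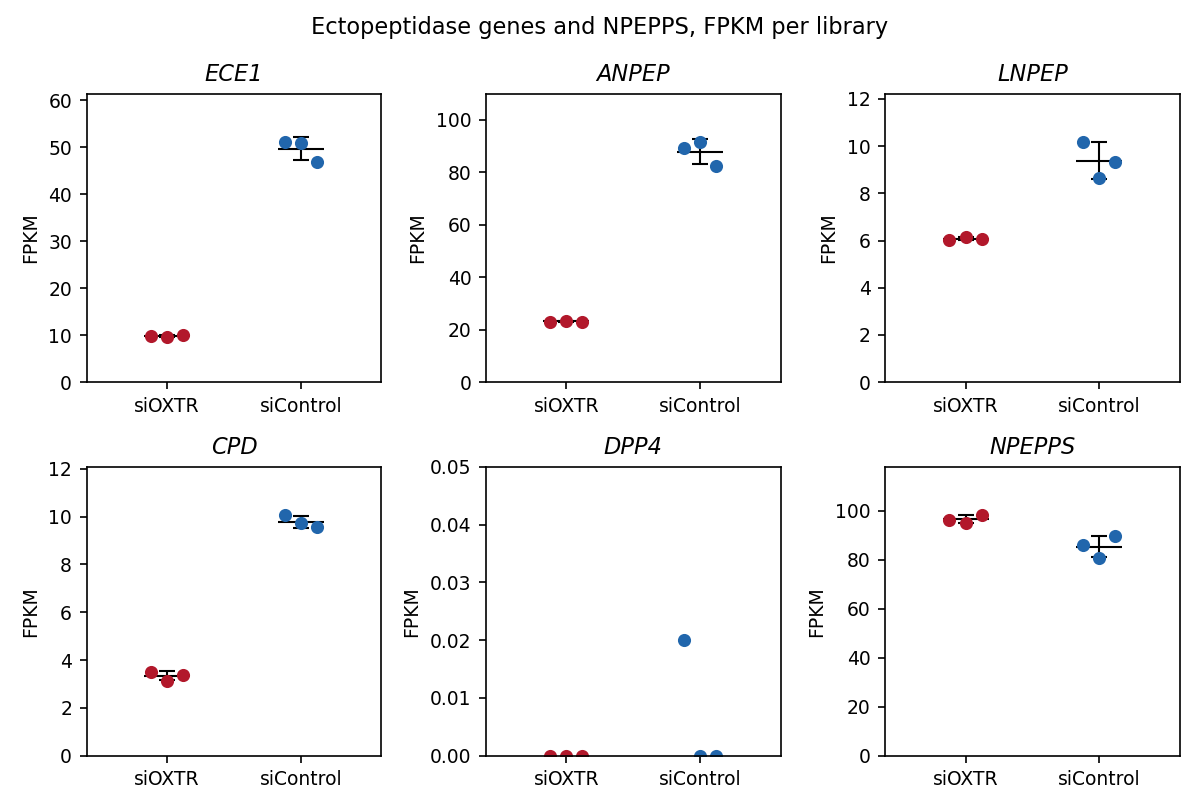
FPKM (vertical axis, from 0, scaled for each gene) of the 6 genes in the siOXTR libraries (red) and the siControl libraries (blue); points are libraries, and the line and bars are the mean and SD of 3, left out for DPP4, which is at or near 0. ECE1, ANPEP, LNPEP and CPD are lower in every siOXTR library, and NPEPPS is higher.

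Of the 6 members 5 passed the filter and entered the fit over all genes (limma, Benjamini-Hochberg adjusted p under 0.05), in which 4 were lower and 1 higher in siOXTR. By that rule 59.8% of all tested genes changed, 17.6% lower and 42.2% higher, and with TMM scaling the shares were 24.6% lower and 18.9% higher. With that scaling 4 members were lower and 0 higher, as NPEPPS did not pass. The groups did not overlap downward in 4 members and upward in 1, against 19.2% and 45.2% of all tested genes. Because the contrast chose the members, nothing is read from these counts.

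The membrane members did not differ by one common factor. Their siOXTR mean was 19.7% of the siControl mean for ECE1, 26.3% for ANPEP, 34.2% for CPD and 64.9% for LNPEP. LNPEP, the oxytocinase gene, and ANPEP encode enzymes of one family with the same motif codons, and their log2 fold changes were -0.55 and -1.88. The ratio of ANPEP to ECE1 was 2.36, 2.42 and 2.30 in siOXTR and 1.74, 1.8 and 1.75 in siControl, so it was higher in each siOXTR library. Among the 3369 tested genes whose protein was predicted to be secreted or membrane-bound, the median log2 fold change was -0.12. In that class 0.119% of genes had a lower value than ECE1, 0.327% than ANPEP, 2.88% than CPD and 24.1% than LNPEP. The 7955 genes with no predicted segment, the class of NPEPPS, had a median of 0.17.

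The order of the mean levels in siOXTR was NPEPPS, ANPEP, ECE1, LNPEP, CPD and DPP4, and the ranges of all neighbours were apart. In siControl it was ANPEP, NPEPPS, ECE1, CPD, LNPEP and DPP4, where the ranges of ANPEP and NPEPPS overlapped, as did those of CPD and LNPEP, so the order within each of these pairs is not settled by the libraries. These are the pairs that change place, and a difference in order between the groups is therefore not shown. Without siControl replicate 2 the order there changed, with 4 of 6 genes at their place.

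The summed level of the 5 membrane members was 42.45, 42.07 and 42.5 FPKM in siOXTR and 160.8, 161.0 and 148.3 FPKM in siControl. NPEPPS made up 69.4%, 69.3% and 69.8% of the total of all 6 genes in siOXTR and 34.8%, 33.4% and 37.6% in siControl. ANPEP made up 16.4% to 16.9% in siOXTR and 34.7% to 37.9% in siControl. LNPEP made up 4.31% to 4.48% in siOXTR and 3.57% to 4.13% in siControl, slightly more in each siOXTR library than in any siControl library. Its own level was lower in siOXTR. The shares depend on the total of all 6 genes, 137.2 to 140.7 FPKM in siOXTR and 237.8 to 246.8 FPKM in siControl. ANPEP stood at 23.5% to 24.4% of the NPEPPS level in siOXTR and at 92.1% to 114% in siControl.

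**Figure D3:**
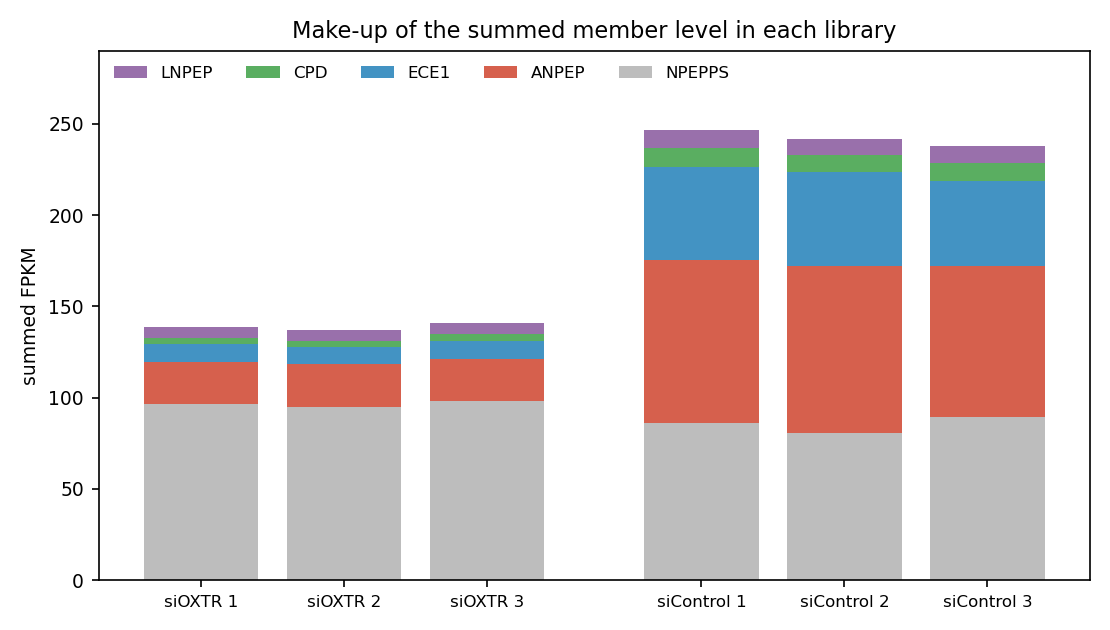
Summed FPKM of the members (vertical axis, stacked by gene) in each siOXTR and siControl library; DPP4 is too low to be drawn. NPEPPS fills most of each siOXTR bar, and the ECE1 and ANPEP parts are larger in each siControl bar.

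Other peptidases of the surface and the secretory lumen were mostly silent in this line. Of 33 listed relatives 28 had a row and 5 reached the filter, of which 3 fell and 1 rose (limma, adjusted p under 0.05). The median log2 fold change was -0.44, against 0.13 for all tested genes. Of all tested genes 17.6% were lower and 42.2% higher. In the class with a predicted signal or membrane segment, which holds 4 of the 5, 45.6% were lower and 20.7% higher. ERAP1, an aminopeptidase that trims antigenic peptides in the endoplasmic reticulum, fell to 9.30 ± 0.736 FPKM in siOXTR, against 22.7 ± 1.16 FPKM in siControl (log2 fold change -1.21, SE 0.067, limma adjusted p = 2.32e-08). Its neighbour and relative ERAP2 was at 4.93 ± 0.397 FPKM in siOXTR and 4.77 ± 0.0651 FPKM in siControl and did not pass (log2 fold change 0.04, limma adjusted p = 0.651). The ratio of ERAP1 to ERAP2 was 1.96, 1.8 and 1.9 in siOXTR and 4.97, 4.77 and 4.56 in siControl. The ratios did not overlap between the groups (two-sided exact permutation p = 0.1, the smallest that 3 against 3 can give). This separation follows from the log2 fold changes just given. ERAP2 was named after its values were seen, so nothing further is read from the p-value. ERAP1, ERAP2 and LNPEP lie side by side on chromosome 5, and their log2 fold changes were -1.21, 0.04 and -0.55. The RefSeq span of ERAP1 runs across ERAP2, so reads of these neighbours may be shared where counting did not use strand.

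Among the carboxypeptidases related to CPD, the secreted enzyme gene CPZ fell 2.07-fold, to 18.2 ± 1.09 FPKM in siOXTR, against 37.6 ± 2.33 FPKM in siControl. CPM, whose enzyme is held at the surface by a lipid anchor, fell to 1.21 ± 0.0611 FPKM in siOXTR, against 2.01 ± 0.103 FPKM in siControl. NAALAD2, a glutamate carboxypeptidase gene, had the only rise, to 1.29 ± 0.153 FPKM in siOXTR, against 0.917 ± 0.225 FPKM in siControl (log2 fold change 0.26, limma adjusted p = 0.039). It reached the filter only through siOXTR, and the call was lost after TMM scaling and without any one of siOXTR replicates 1, 2 and 3 and siControl replicates 1 and 2. The other 23 relatives with a row stayed under the filter, and the highest of these, GGT1, reached 0.69 FPKM. MME (neprilysin), the best-known relative of ECE1, was at 0.05 FPKM or less in every library and ACE (angiotensin-converting enzyme) at 0.19 FPKM or less.

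The cytosolic peptidases were expressed throughout, and all 24 listed genes passed the filter. As deposited, 15 rose and 0 fell (limma, adjusted p under 0.05), and 15 and 0 at an unadjusted p under 0.05, with a median log2 fold change of 0.22. Of all tested genes 42.2% were higher, and of the 7955 with no predicted segment, the class of 22 of these 24 genes, 4058 were higher, with a median of 0.17. After TMM scaling 18.9% of all tested genes were higher and 24.6% lower. Of the list 1, PREP, was then lower and 4 were higher, with a median of 0.09, so most of these calls moved with the scaling. Nothing about the list is read from these counts. The 4 were DPP3, which trims pairs of residues and rose 1.32-fold to 28.7 ± 0.924 FPKM in siOXTR, against 21.8 ± 1.53 FPKM in siControl, TPP2 (1.28-fold), NPEPL1 (1.25-fold) and IDE, the insulin-degrading enzyme gene (1.26-fold). DPP8, a cytosolic relative of DPP4, rose 1.28-fold as deposited and did not pass after TMM scaling. Their summed level was 736 to 751 FPKM in siOXTR and 645 to 654 FPKM in siControl. LTA4H and RNPEP, the soluble relatives of NPEPPS, did not pass, with log2 fold changes of 0.08 and 0.11.

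Of 9 listed proprotein convertase and processing genes of the secretory pathway, 6 passed the filter. These 6 fell (limma, adjusted p under 0.05). They also fell after TMM scaling, when 24.6% of all tested genes were lower. With a minimum of 5 FPKM 4 genes of the list were lower, as PCSK4 and PCSK5 lie under that minimum. The median log2 fold change of the 6 was -0.66. Of all tested genes 17.6% were lower, and of the 3369 with a predicted signal or membrane segment, the class that holds these 6, 45.6% were lower, with a median of -0.12. PAM, which amidates the ends that carboxypeptidases expose, fell 2.14-fold, to 17.7 ± 0.515 FPKM in siOXTR, against 37.8 ± 0.799 FPKM in siControl. FURIN, the main convertase of the trans-Golgi network, fell to 11.4 ± 0.975 FPKM in siOXTR, against 21.9 ± 2.28 FPKM in siControl. MBTPS1 (site-1 protease) fell 1.94-fold, and the convertase genes PCSK5 and PCSK7 fell 1.64-fold and 1.38-fold. CPE, the granule carboxypeptidase gene of endocrine cells, was at 0.02 FPKM or less in every library.

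Few of the peptide signals these enzymes act on were present as transcripts. Of 28 listed ligand and receptor genes 18 had a row and 3 passed the filter, and these 3 fell (limma, adjusted p under 0.05). Of all tested genes 17.6% were lower, and of the 3369 with a predicted signal or membrane segment, the class that holds these 3, 45.6% were. Nothing about the list is read from this count. OXTR itself, the target of the siRNA, is 1 of the 3. The other two are endothelin genes, whose products ECE1 processes. EDN1 fell to 12.1 ± 0.329 FPKM in siOXTR, against 18.0 ± 0.816 FPKM in siControl (log2 fold change -0.53, SE 0.058, limma adjusted p = 1.13e-05). EDN2 had 0.62, 0.57 and 0.47 FPKM in siOXTR and 1.13, 1.7 and 1.9 FPKM in siControl, and reached the filter only through siControl. Without siControl replicate 2 or siControl replicate 3, and with a minimum of 5 FPKM, 2 of the listed genes were lower. The endothelin receptor genes EDNRA and EDNRB stayed at or under 0.10 and 0.04 FPKM.

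The genes of the insulin-responsive vesicle that carries LNPEP moved both ways. Of 9 listed 8 were tested, 2 fell and 3 rose (limma, adjusted p under 0.05), with a median log2 fold change of 0.10. Of all tested genes 17.6% were lower and 42.2% higher. TMM scaling gave 3 lower and 1 higher, against 24.6% and 18.9% of all tested genes. Nothing about the list is read from these counts. The membrane cargo gene SORT1 (sortilin) fell 2.42-fold, to 11.9 ± 0.369 FPKM in siOXTR, against 28.7 ± 2.5 FPKM in siControl. LRP1, also a cargo gene, was at 0.617 ± 0.0551 FPKM in siOXTR and 2.23 ± 0.22 FPKM in siControl and reached the filter only through siControl. With a minimum of 5 FPKM 1 gene of the list was lower. ASPSCR1, a soluble tether gene of that vesicle, rose 1.44-fold, to 12.9 ± 0.869 FPKM in siOXTR, against 9.0 ± 0.758 FPKM in siControl. The small GTPase genes RAB10 and RAB14 rose 1.16-fold and 1.13-fold as deposited and did not pass after TMM scaling. SLC2A4, the glucose transporter gene of the same vesicle in muscle and fat, was at 0.37 FPKM or less.

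**Figure D4:**
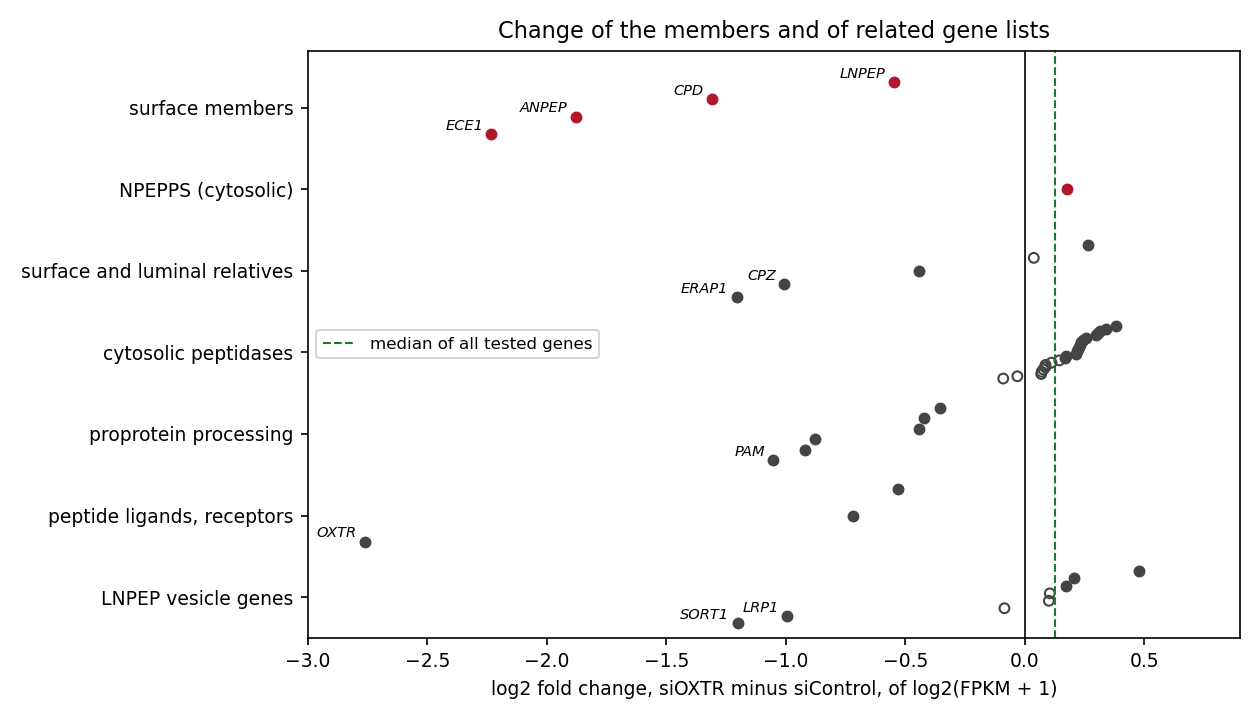
Log2 fold change, siOXTR minus siControl, of log2(FPKM + 1) (horizontal axis) for the tested members (red) and the tested genes of 5 related lists (grey), with filled points past the limma threshold, open points not past it and the median of all tested genes (0.13) dashed. ECE1 (-2.23) and ANPEP (-1.88) lie lowest after OXTR, and NPEPPS (0.18) lies among the cytosolic peptidases.

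Genes with a pattern most like each member were sought over the 6 libraries, by the smallest root mean square difference of log2(FPKM + 1) after each gene was centred on its own mean. ECE1 was closest to the complement gene C3 (difference 0.0573) and the glucose transporter gene SLC2A3 (0.0864). ANPEP was closest to CDH1, which encodes E-cadherin (0.0408), and to the amyloid precursor gene APP (0.0451). CPD was closest to NPC1 (0.0293), a lysosomal cholesterol transporter gene, and the phosphate transporter gene SLC20A2 (0.0308). LNPEP was closest to TMOD3 (0.0214), which encodes an actin-capping protein, and ATP13A3 (0.0315), a P-type ATPase gene. NPEPPS was closest to ATP6V1A (0.0103), a cytosolic subunit gene of the proton pump, and SENP1 (0.0113). Such likeness over 2 groups of 3 libraries mostly reflects a similar difference between the groups. DPP4 has no pattern to match.

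Promoter windows of all 6 members were in the RefSeq table (GRCh38.p14), from 250 bases before to 50 after a transcript start, 13 windows in all. The letters CATTCC, the core that TEAD factors bind as partners of YAP, were searched on both strands. They were found in 1 of the 13 windows, 1 of the 2 of NPEPPS, and in 14.0% of all 35116 windows. None of the 4 windows of ECE1 or the 2 of ANPEP holds these letters, which says nothing of other sites.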

How the data were processed

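The deposited values are FPKM per gene, rounded to 2 decimals, per the file headers, for 3 siOXTR and 3 siControl libraries (BGISEQ-500, per the labels' protocols). The submitters' processing notes name build GRCh38.p13; the aligner, quantifier and annotation are not given in the sources used. Depth is unknown: a search of low values for whole-fragment steps reached a coherence of 0.078 to 0.1 of a possible 1. The summed FPKM was 446246 to 459595 in siOXTR and 417829 to 434167 in siControl. No count test was run.

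The 11550 genes averaging 1 FPKM or more were fitted in limma 3.58.1 (R 4.3.3) on log2(FPKM + 1) (group only, mean trend, robust prior, two-sided, Benjamini-Hochberg over all tested genes, threshold 0.05), a procedure tested on simulated data. The simulation held far fewer changed genes than were called here and no shift between the groups, so it cannot speak to the scaling. Fold changes on this scale understate changes of low genes; "-fold" values are ratios of mean FPKM. Members and lists were chosen with earlier results of these data known. Named genes are the members, OXTR, up to 5 called genes of each list with the largest change, and the 2 genes most like each member; others were named after their values were seen. A listed item is not reported here. Segments were predicted from GENCODE release 29 coding sequences, matched by Entrez number for 17052 genes: a 9-residue window of at least 2.2 in the first 35 residues, or a 19-residue window of at least 1.7. Proteins whose windows of that kind all lay in the last 45 residues were set apart. The prediction misplaces some genes. ERAP2 had no predicted segment, while LTA4H and APEH of the cytosolic list and the small GTPase gene RAB10 had one. Alternatives were another pseudocount (0.1), no filter or a minimum of 5 FPKM, unweighted TMM scaling (30% and 5% trimmed), a replicate block and leaving out each library.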

Additional observations from a re-analysis of the deposited data

How the results depend on the processing

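The differences of the 5 tested members kept their direction under every alternative run. Their groups did not overlap, so leaving out a library or another pseudocount could not reverse it. The filters and the replicate block leave the log2 fold change as it is, so only the scaling could have changed the direction. With a pseudocount of 0.1 the log2 fold change was -2.33 for ECE1 and -1.52 for CPD. After TMM scaling it was -2.355 for ECE1, -2.01 for ANPEP, -1.42 for CPD, -0.66 for LNPEP and 0.048 for NPEPPS, which then did not pass the threshold. Leaving out 1 library at a time gave -2.27 to -2.21 for ECE1, -1.92 to -1.85 for ANPEP, -1.34 to -1.28 for CPD, -0.60 to -0.49 for LNPEP and 0.14 to 0.21 for NPEPPS. TMM scaling gave 2179 genes higher in siOXTR, against 4869 as deposited. It divided each library by a single factor, 1.041 to 1.054 in siOXTR and 0.9511 to 0.9601 in siControl. The median shift of the log2 fold changes was -0.121, and low genes moved less, such as NAALAD2, from 0.263 to 0.196. The scaling gave 4 higher and 1 lower cytosolic peptidases, 1 higher vesicle gene and 0 higher surface or luminal relatives. With a minimum of 5 FPKM, which leaves fewer genes tested, 0 relatives were higher and 2 lower. With that minimum 4 processing genes, 2 peptide system genes and 1 vesicle gene were lower. Leaving out 1 library gave 3976 to 4671 genes higher and 1819 to 2020 lower, 3 relatives lower and 0 to 1 higher, 12 to 15 cytosolic peptidases higher and 0 lower, 2 to 3 peptide system genes lower and 0 higher, 6 processing genes lower and 0 higher, and 2 vesicle genes lower and 2 to 3 higher. The level order kept 6 genes at their place in siOXTR and 4 to 6 in siControl.

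The labels number the libraries 1 to 3 in both groups. Deviations of same-numbered libraries correlated at 0.107, 0.004 and 0.160, so the numbers were not taken to pair them. With the replicate block 2105 genes were lower and 5100 higher, and every list count was the same as without it. Each number occurs once per group, so the block cannot change the members' log2 fold changes. Their equal values therefore say nothing about pairing. Depth is unknown, which limits what can be said of genes near 0, such as DPP4.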
